A study of Mus musculus with 22 samples.

Results

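The let-7 family was followed here through its 10 mature members in small RNA libraries of the mouse hypothalamus: mmu-let-7a-5p, mmu-let-7b-5p, mmu-let-7c-5p, mmu-let-7d-5p, mmu-let-7e-5p, mmu-let-7f-5p, mmu-let-7g-5p, mmu-let-7i-5p, mmu-let-7k and mmu-miR-98-5p. They are the rows of the tables of normalised values that carry a let-7 or miR-98 name, 10 of 172 miRNAs. The rule that picks the rows uses the name alone, but the family was chosen with earlier results of these data known. The question was how the reads of the family were divided among its members, how closely the members moved together over libraries, and whether the division differed between nuclei or between maternal groups. The mice were wild type C57BL/6J males of 8 weeks, all kept on chow after weaning, and their mothers were either obese on a high-fat diet with condensed milk (Off-Ob) or lean on chow (Off-C). Tissue of the arcuate nucleus (ARC) and of the paraventricular nucleus (PVH) was cut from frozen sections by laser capture, so each library holds all cell types within the captured area. There were 5 Off-Ob ARC, 6 Off-C ARC, 5 Off-Ob PVH and 6 Off-C PVH libraries, 22 in all, from 12 mice. Of these mice, 4 Off-Ob and 6 Off-C gave a library of both nuclei, while F6A (Off-Ob) gave only an ARC library and F14A (Off-Ob) only a PVH library. All ARC libraries carried the name of 1 sequencing pool and all PVH libraries that of another, so nucleus and pool cannot be told apart.

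miRNAs are short RNAs that guide Argonaute proteins to messenger RNAs, mainly through base pairing of the seed near their 5′ end, and lower the stability and translation of those messengers. The let-7 family is known for marking the differentiated state: it accumulates as neural tissue matures, and the RNA-binding proteins Lin28a and Lin28b, which bind let-7 precursors in stem and progenitor cells, hold it down earlier in life. Its members come from separate hairpins at several loci, carry the same seed and differ mainly in the middle and the 3′ end, so that the division of reads among them describes which members are present and not which seed.

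The mature sequences are printed because the members are told apart by only a few bases. They were matched by name to RefSeq on GRCm38.p6, in which all 10 had an entry, and are written 5′ to 3′ with the seed, bases 2 to 8, in capitals.
let-7a: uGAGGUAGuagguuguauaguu
let-7b: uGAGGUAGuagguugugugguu
let-7c: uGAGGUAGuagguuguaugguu
let-7d: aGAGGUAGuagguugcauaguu
let-7e: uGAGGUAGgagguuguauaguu
let-7f: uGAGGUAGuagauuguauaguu
let-7g: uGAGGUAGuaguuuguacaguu
let-7i: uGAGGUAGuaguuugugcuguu
let-7k: uGAGGUAGgagguugugug
miR-98: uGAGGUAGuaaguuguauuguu
All 10 shared the seed GAGGUAG, and of the 148 miRNAs of the tables with a sequence in RefSeq no non-member carried it. With positions counted from 1 at the 5′ end and the base of let-7a given before that of the other member, let-7c differed from let-7a by A19G, let-7e by U9G and let-7f by G12A. The difference was A17G and A19G for let-7b, U1A and U16C for let-7d, G12U and U18C for let-7g, and G11A and A19U for miR-98. let-7i differed most, by G12U, A17G, U18C and A19U, and shared 2 of these changes, G12U and U18C, with let-7g. let-7k is listed with 19 bases against 22 for the other members. Over those 19 bases it was 1 base from let-7b (U9G, let-7b before let-7k), 2 from let-7c (U9G and A17G, let-7c before let-7k) and 2 from let-7e (A17G and A19G, let-7e before let-7k). How the authors assigned reads that match several members is not given in the sources used here, so values of members 1 or 2 bases apart are uncertain to that extent.

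RefSeq lists these mature forms at 12 hairpin genes, with 2 each for let-7c and let-7f. A further hairpin, Mirlet7a-2, stands on chromosome 9 at 41536716 to 41536811. Positions are on GRCm38.p6 and overlaps are from GENCODE release M21 on the same build. Mirlet7a-1 (chromosome 13, 48538179 to 48538272), Mirlet7f-1 and Mirlet7d lay within 1 stretch of the minus strand in an exon of the lincRNA 6720427I07Rik, with gaps of 262 bases between Mirlet7a-1 and Mirlet7f-1 and 1715 bases between Mirlet7f-1 and Mirlet7d. Mirlet7c-2 (chromosome 15, 85706603 to 85706697) and Mirlet7b stood 622 bases apart in an exon of Lncppara. Mirlet7c-1 (chromosome 16, 77599657 to 77599750) lay in an intron of Mir99ahg, 657 bases from Mir99a. Mirlet7e (chromosome 17, 17830352 to 17830444) lay in an intron of Spaca6, 368 bases from Mir125a. Mirlet7f-2 (chromosome X, 151912346 to 151912428) and Mir98 stood 786 bases apart in an intron of Huwe1. Mirlet7g (chromosome 9, 106178840 to 106178927) lay in an intron of Wdr82, Mirlet7i (chromosome 10, 122985640 to 122985724) in an exon of the pseudogene D630033A02Rik, and Mir7k (chromosome 5, 147283189 to 147283298), which makes let-7k, within no other annotated gene.

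Whole reads were recovered from the normalised values, and the libraries held 22680 to 91790 reads in the ARC and 22495 to 61476 in the PVH. The family took 30.5% to 42.6% of the reads in the PVH libraries and 33.8% to 46.8% in the ARC libraries other than those of F42A and F6A. The ARC libraries of these 2 Off-Ob mice stood apart, with 79.1% of reads from the family in F42A and 64.2% in F6A. Neuron-enriched miRNAs (8 of 8 listed measured, among them miR-124-3p and miR-9-5p) summed to 0.366% of reads in the ARC of F42A and 0.462% in that of F6A, against 1.70% to 2.60% in the Off-C ARC libraries, 3.31% to 4.49% in the Off-Ob PVH and 2.65% to 4.39% in the Off-C PVH. As a part of the reads outside the family they made up 1.29% to 4.15% in the Off-Ob ARC libraries, against 3.08% to 4.06% in the Off-C ARC libraries. The lowest of these values was that of F6A, and F42A also lay below the Off-C ARC range. The 2 endothelial miRNAs summed to 0.384% in the ARC of F42A and 0.629% in that of F6A, against 0.665% to 2.18% in the Off-C ARC. Of the reads outside the family they made up 1.16% to 1.83% in the Off-Ob ARC libraries and 1.01% to 3.79% in the Off-C ARC libraries. Of 3 oligodendrocyte miRNAs 1 was measured, which had no read in the ARC of F42A. All 3 markers of microglia and white blood cells and all 4 of ependyma and choroid plexus were not among the 172 miRNAs. Of 7 pituitary miRNAs, 2 were (miR-7a-5p and miR-7b-5p, which hypothalamic neurons also express), with 6.69% of reads in the ARC of F42A and 12.3% in that of F6A, against 15.3% to 22.05% in the Off-C ARC. Outside the family they took 32.0% to 36.8% of reads in the Off-Ob ARC libraries and 26.6% to 34.4% in the Off-C ARC libraries. Their part in the results below was not tested. Results that rest on these libraries are given with and without them.

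The family was led by let-7c in every library. Its share of family reads, which is the reads of a member over the summed reads of the 10, was 36.6% ± 3.36 (SD, n = 22), with a range of 33.7% to 46.6%. let-7g followed with 18.4% ± 3.48 and let-7k with 12.7% ± 0.984 (SD, n = 22 each). let-7f held 9.70% ± 1.10 and let-7b 9.24% ± 0.904 (SD, n = 22 each). The lower members were let-7i at 5.05% ± 2.52, let-7e at 4.65% ± 0.596, let-7d at 2.01% ± 0.453 and miR-98 at 1.61% ± 0.170 (SD, n = 22 each). let-7c, let-7g and let-7k together made up 63.9% to 70.7% of family reads in any library. Levels were compared as reads of whole mature miRNAs, with no length term, and the shares cover these 10 members only.

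let-7a, whose mature sequence is the same in distant animals, was the rarest member in all 22 libraries, at 0.0868% ± 0.0270 (SD, n = 22). It was counted with 9 to 31 reads in the ARC libraries and 1 to 32 in the PVH libraries. The single read in the PVH of RC11A gave a share of 0.0146% with a 95% Wilson interval of 0.0026% to 0.0824%. Its differences were therefore limited by counting more than those of any other member. Amplified reads are not independent molecules, so intervals of this kind account for the error of counting and for no other. The sequence of let-7a is 1 base from those of let-7c, let-7e and let-7f. How reads that match several members were assigned is not given, and its part in the let-7a share was not tested.

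Several neighbours in this order were not separated. let-7c exceeded let-7g in 22 of 22 libraries with no overlap of ranges, and let-7e exceeded let-7d in 22 of 22, again with no overlap. let-7k exceeded let-7f, let-7b exceeded let-7i and miR-98 exceeded let-7a in 22 of 22 libraries each, the last pair with no overlap of ranges. let-7g exceeded let-7k in 20 of 22, and let-7d exceeded miR-98 in 16 of 22. let-7f stood above let-7b in 10 of 11 ARC libraries but in 4 of 11 PVH libraries. let-7i stood above let-7e in 3 of 11 ARC libraries and in 8 of 11 PVH libraries, with ranges that overlapped widely.

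**Figure D1:**
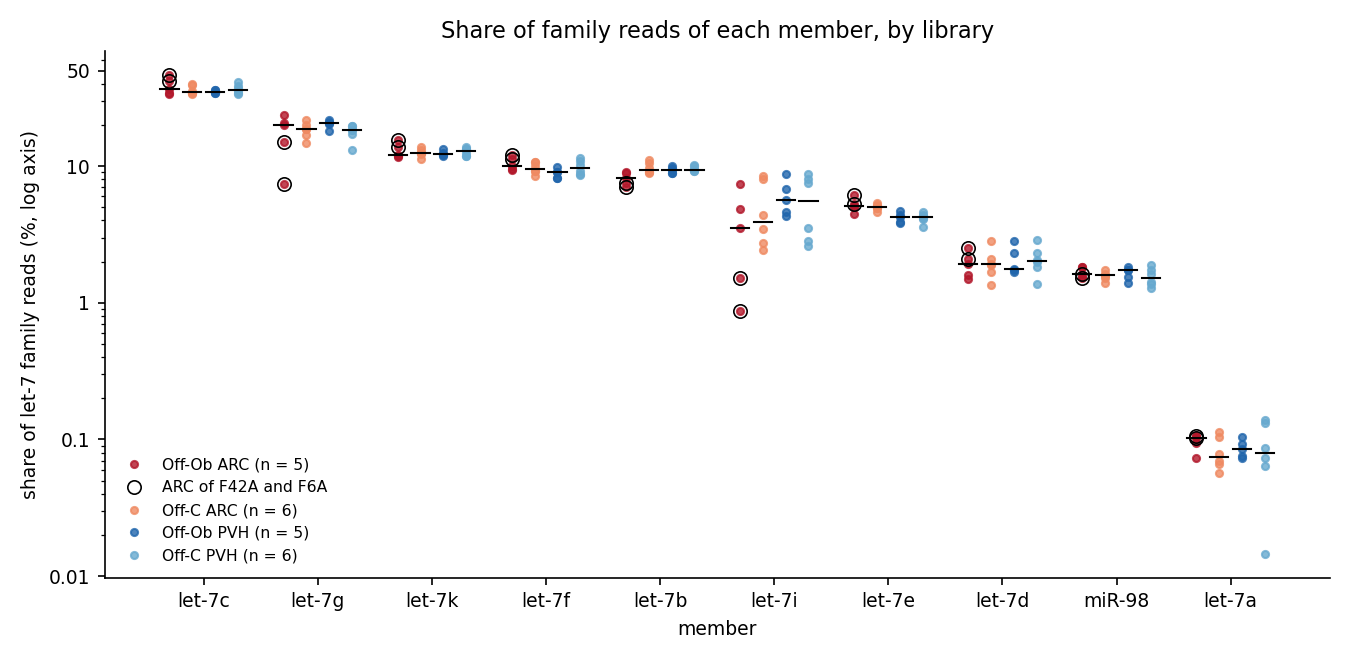
Share of family reads of each member (percent, log axis) in the 22 libraries, with 1 point per library, a bar at each group's median and open circles around the ARC libraries of F42A and F6A. let-7c lies between 33.7% and 46.6% in every library, while let-7i spreads from 0.864% to 8.82% and let-7a stays at or below 0.139%.

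The members did not all keep step with each other. For each of the 45 pairs the spread was taken as the SD over libraries of the log2 ratio of their reads, which is free of depth and scale factor, and it is given as a description with no test. The steadiest pair in the ARC was let-7c and let-7k, with an SD of 0.057 against 0.035 from counting alone. Over all 22 libraries let-7c had 2.55 to 3.06 times the reads of let-7k. Their hairpins lie on different chromosomes, and over 19 bases their sequences differ at 2. How reads that match both were assigned is not given, and its part in this ratio was not tested. In the ARC the next steadiest pairs were let-7e with let-7f (0.110), let-7e with let-7k (0.120), let-7c with let-7f (0.124) and let-7f with let-7k (0.131). In the PVH they were let-7c with let-7f (0.081), let-7c with let-7k (0.087), let-7b with let-7k (0.091), let-7b with let-7c (0.096) and let-7e with let-7k (0.115). Among let-7b, let-7c, let-7e, let-7f and let-7k no pair spread by more than 0.21 in the PVH or by more than 0.18 in the ARC without F42A and F6A. With those 2 libraries the pairs of let-7b reached 0.31 in the ARC.

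Pairs with let-7i had the largest spreads in the ARC. They reached 1.17 with let-7c, 1.15 with let-7k, 1.14 with let-7f, 1.12 with let-7a and 1.09 with let-7e, against 0.065 expected from counting for let-7i with let-7c. Without the ARC libraries of F42A and F6A the pairs with let-7i still spread by 0.525 to 0.768, so let-7i also varied against every member in the other 9 libraries. In the PVH the 5 widest pairs all held let-7a, from 0.874 with let-7k to 1.33 with let-7i, where counting alone gave 0.590 and 0.591. The spread was larger in the ARC than in the PVH for 27 of 45 pairs, and for 15 of 45 when F42A and F6A were left out of the ARC.

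let-7g was steadier than let-7i but less steady than let-7c. The log2 ratio of let-7g to the summed reads of the other members had an SD of 0.53 in the ARC, 0.25 in the ARC without F42A and F6A, and 0.24 in the PVH. The SDs were 0.25, 0.15 and 0.14 for let-7c, and 1.06, 0.70 and 0.68 for let-7i. The low end was again the ARC of F42A, where let-7g took 7.44% of family reads (95% Wilson interval 7.06% to 7.83%), while the highest was the ARC of F13A at 23.5%. let-7d, the only member with an adenine at its 5′ end, ranged from 1.34% to 2.83% in the ARC and from 1.37% to 2.90% in the PVH. The 5 pairs 1 base apart, 3 of which hold the rare let-7a, had a median spread of 0.35 in the ARC and a PVH median of 0.82. For the 12 pairs 2 bases apart the medians were 0.28 and 0.27.

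**Figure D2:**
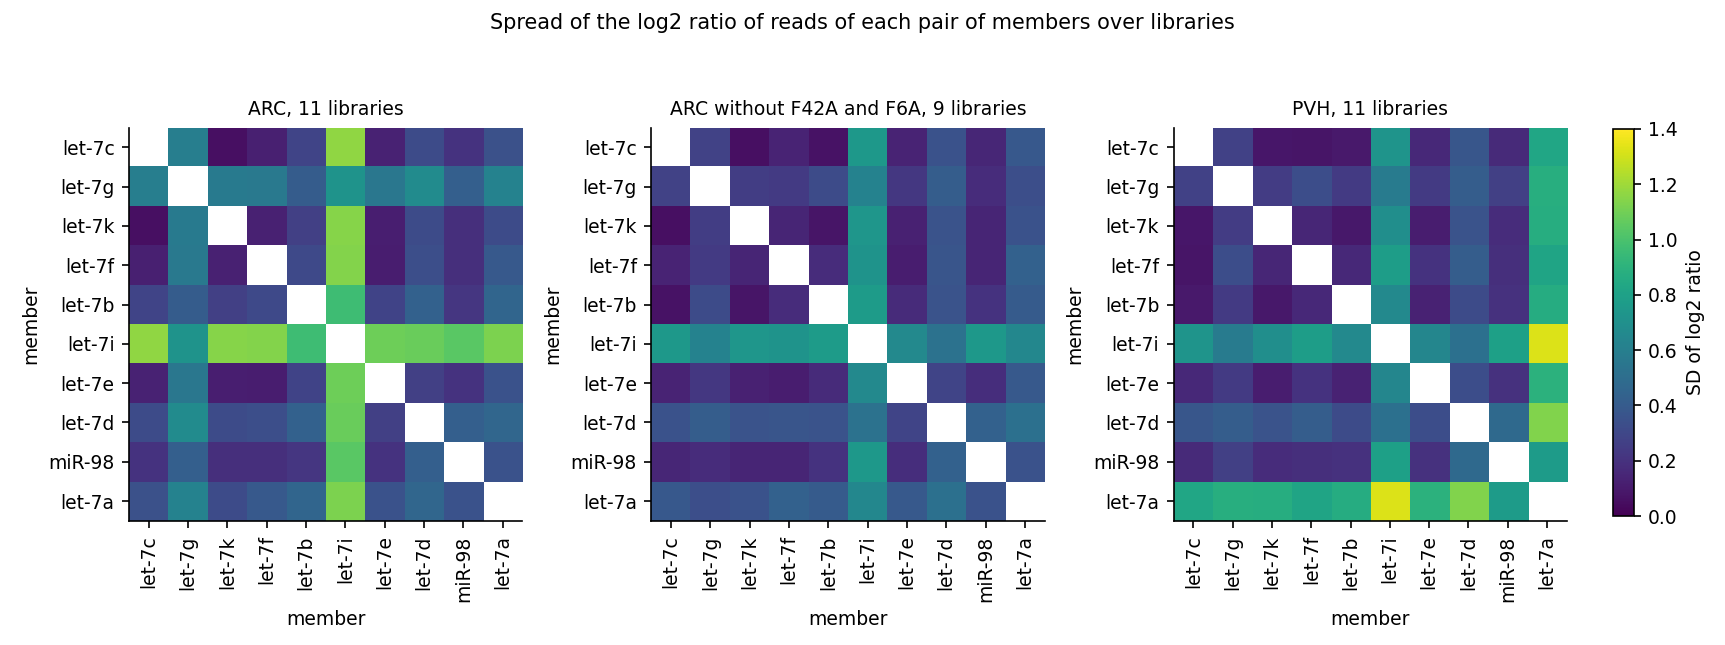
SD over libraries of the log2 ratio of reads for each of the 45 pairs of members, in the ARC (11 libraries), in the ARC without F42A and F6A (9 libraries) and in the PVH (11 libraries), with darker squares for steadier pairs. The row of let-7i is bright in all panels, most of the row of let-7a is bright in the PVH, and the square of let-7c and let-7k is among the darkest.

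let-7i, whose hairpin stands alone on chromosome 10, changed most over the 22 libraries and within the ARC. In the PVH the sparsely counted let-7a changed more, 9.56-fold against 3.38-fold for let-7i. Over the 22 libraries the fold range was 10.2 for let-7i and 9.56 for let-7a, and that order rests on the ARC of F42A and F6A. In the other libraries let-7i held 2.45% to 8.82%, a narrower fold range than that of let-7a. The share of let-7i was 7.39%, 4.87%, 3.51%, 1.52% and 0.864% in the Off-Ob ARC libraries of F12A, F13A, F41A, F6A and F42A, against 2.45% to 8.40% with a median of 3.93% in the 6 Off-C ARC libraries. In Off-Ob PVH libraries it was 8.82%, 6.77%, 5.61%, 4.60% and 4.32% in F42A, F14A, F13A, F12A and F41A, against 2.61% to 8.82% with a median of 5.51% in the 6 Off-C PVH libraries. The groups overlapped. The ARC and PVH of a mouse lay far apart in some mice and close together in others. RC12A had 2.45% in the ARC and 8.82% in the PVH, RC11A 3.49% and 8.01%, and F42A 0.864% (95% Wilson interval 0.739% to 1.01%) and 8.82% (8.23% to 9.46%), whereas RC13A had 8.40% in the ARC and 3.54% in the PVH, and RC5A 8.00% and 2.85%. RC8A had 2.73% in the ARC and 2.61% in the PVH, F41A 3.51% and 4.32%, and F13A 4.87% and 5.61%. The family made up 79.1% and 64.2% of reads in the libraries with the lowest let-7i shares, the ARC of F42A and F6A, and 31.7% and 33.3% in those with the highest, the PVH of F42A and RC12A. Family reads are the divisor of the share and the numerator of that percentage, so the values are not independent.

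Among the 68 other miRNAs with a mean of at least 50 reads and no library at 0, the steadiest ratio to let-7i belonged to miR-191-5p, which is no member and has another seed. The log2 ratio of let-7i to miR-191-5p had an SD of 0.23 over the 22 libraries, and let-7i had 0.62 to 1.11 times the reads of miR-191-5p. The ratio of let-7i to let-7c varied 13.9-fold over the same libraries. In the ARC let-7c had 4.05 to 53.9 times the reads of let-7i, and 4.05 to 16.2 times without F42A and F6A. In the PVH it had 3.88 to 15.8 times. The closest member, let-7g, came 31st of the 68 with an SD of 0.68. These companions were looked up after the spread of let-7i had been seen, and the likeness is a description over 22 libraries that share pools and depth.

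**Figure D3:**
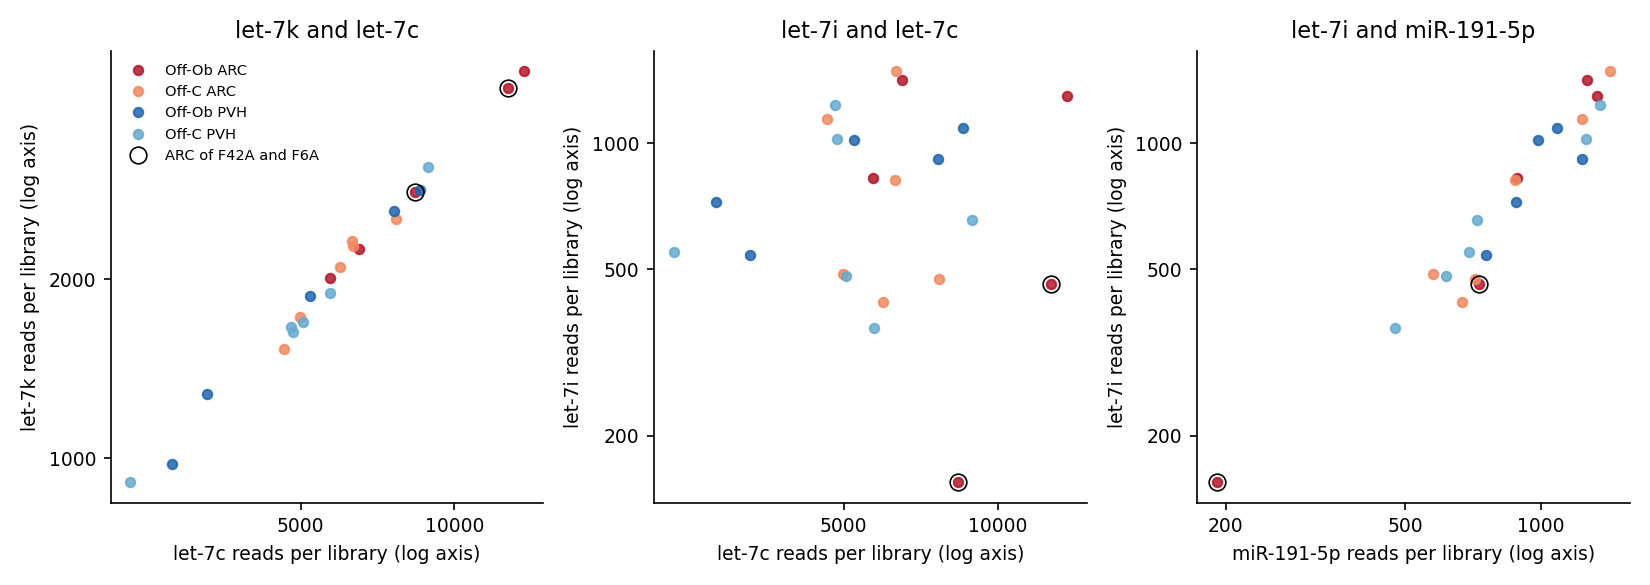
Reads per library of let-7k against let-7c, of let-7i against let-7c, and of let-7i against miR-191-5p, with all axes on a log scale, 1 point per library in the colour of its group, and open circles around the ARC libraries of F42A and F6A. let-7c keeps 2.55 to 3.06 times the reads of let-7k, let-7i does not follow let-7c, and let-7i keeps 0.62 to 1.11 times the reads of miR-191-5p.

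Between the ARC and the PVH no member's share of family reads passed limma's test within mice. The 10 mice with both libraries were compared within each mouse by limma on log2 shares (with 0.5 reads added), fitted over all 172 miRNAs with Benjamini-Hochberg adjustment. No member passed an adjusted p of 0.05, and none had an unadjusted p under 0.05, while 10 of the 172 miRNAs did pass on this scale (5.81%, 1 higher and 9 lower in the ARC). The median difference was 0.010 for the members and -0.50 for all 172 miRNAs. Of the members, 6 were higher and 4 lower in the ARC.

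let-7e was the member whose share moved the same way in every mouse. Its share was 6.17%, 5.24%, 5.08%, 4.99% and 4.49% in the Off-Ob ARC libraries of F42A, F6A, F13A, F12A and F41A, and 4.58% to 5.39% with a median of 5.02% in the Off-C ARC libraries. In the PVH it was 4.68%, 4.41%, 4.23%, 3.91% and 3.86% in the Off-Ob libraries of F13A, F42A, F12A, F41A and F14A, and 3.58% to 4.60% with a median of 4.25% in the Off-C libraries. It took a larger part of the family in the ARC than in the PVH of 10 of 10 mice, and the log2 difference was smallest in RC11A at 0.10 and largest in RC9A at 0.51. The median over 11 libraries was 5.08% in the ARC (SD 0.442) and 4.23% in the PVH (SD 0.327), and the ranges of the nuclei overlapped. Over all 172 miRNAs the same held for 2 miRNAs (1.16%), and 14 (8.14%) were lower in the ARC share of every mouse.

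The 2 tests of let-7e gave different answers. limma put the difference at 0.26 with SE 0.12 and a 95% interval of -0.0018 to 0.53, with an unadjusted p of 0.0513 and an adjusted p of 0.198. The residual SD of let-7e itself was 0.098, and limma's moderated SD, which borrows from all miRNAs fitted, was 0.27. An exact sign-flip test over the 10 mice, two-sided and using let-7e alone, gave p = 0.00195, the smallest that 10 mice can give, with a mean difference of 0.26 and SE 0.044. This exact p was not adjusted, and 10 members were tested in the same way. Without F42A the mean was 0.24 in 9 of 9 mice (exact p = 0.0039, the smallest possible there). The call also changed with the replicate block: with the mouse as a random block or with no block, over 22 libraries, limma gave let-7e 0.28 and adjusted p = 0.0498 and 0.0302. The within-mouse correlation that the random block estimated over all miRNAs was -0.22. Nucleus and sequencing pool cannot be told apart in any of these values.

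The share of let-7e can be broken down into its ratios to single members, which rest on the same reads. Its ratio to let-7b, let-7c and let-7k was higher in the ARC of 10 of 10 mice, and these were the 3 pairs of the 45 whose ratio moved the same way in every mouse. The mean log2 change of the ratio was 0.33 against let-7b, 0.24 against let-7c and 0.26 against let-7k. Against miR-98 it was higher in 9 mice, against let-7a, let-7d and let-7f in 8, and against let-7g and let-7i in 7.

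For the other 9 members the intervals differed in width. The ARC minus PVH difference of log2 share was 0.022 for let-7c (95% interval -0.14 to 0.19), 0.00032 for let-7k (-0.21 to 0.21) and -0.069 for let-7b (-0.29 to 0.15). It was 0.064 for let-7f (-0.19 to 0.32), -0.076 for let-7g (-0.39 to 0.23) and 0.020 for miR-98 (-0.34 to 0.38). It was -0.12 for let-7d (-0.56 to 0.31), 0.12 for let-7a (-0.45 to 0.69) and -0.42 for let-7i (-1.31 to 0.47). let-7i was higher in the ARC of 4 mice and lower in 6, and without F42A its mean was -0.094.

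**Figure D4:**
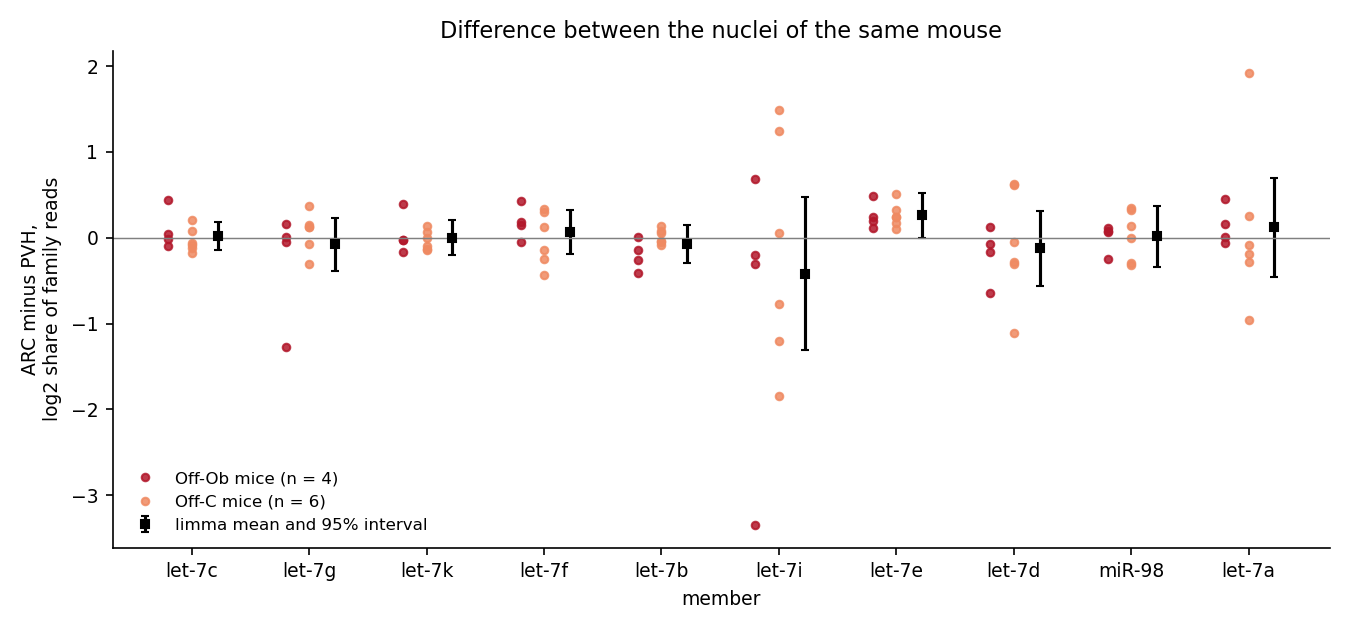
ARC minus PVH difference in the log2 share of family reads for each member, with 1 point per mouse (4 Off-Ob and 6 Off-C) and the limma mean with its 95% interval as a black square. All 10 points of let-7e lie above 0, between 0.10 and 0.51, and the points of let-7i run from -3.35 to 1.49.

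Between maternal groups no member's share passed the test in either nucleus. In the ARC, limma over 5 Off-Ob and 6 Off-C libraries called 0 of 172 miRNAs (0%) at an adjusted p of 0.05 and 13 at an unadjusted p under 0.05, none of them a member. The largest differences were -0.65 for let-7i (SE 0.56, adjusted p = 0.36), -0.25 for let-7b (SE 0.15, adjusted p = 0.33) and 0.25 for let-7a (SE 0.29, adjusted p = 0.49). The remaining members lay between -0.19 for let-7g and 0.10 for let-7f, with let-7c at 0.090, miR-98 at 0.081, let-7k at 0.052, let-7e at 0.043 and let-7d at -0.018. The members' median was 0.047 and that of all 172 miRNAs -0.78, which are not comparable because the members' own reads make up the divisor.

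let-7b had the smallest exact p of the members in the ARC. Its share was 9.09%, 8.95%, 8.17%, 7.54% and 7.03% in F41A, F12A, F13A, F6A and F42A, against 8.95% to 11.1% with a median of 9.31% in the Off-C ARC libraries. All 5 Off-Ob values lay below the Off-C mean and 4 lay below the lowest Off-C library, the nearest of them by less than 0.01 percentage points. An exact permutation test over the 462 splits, two-sided, gave p = 0.0238 for let-7b, unadjusted over the 10 members tested. Without F42A and F6A the difference was -0.15 and the exact p was 0.155 over 84 splits. The Off-Ob libraries with the lowest let-7b shares were F42A and F6A.

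The direction of several members in the ARC changed without these libraries. Without F42A and F6A, limma gave 0.20 for let-7i and 0.22 for let-7g in place of -0.65 and -0.19, and -0.048 for let-7c in place of 0.090. let-7g had 23.5%, 20.5% and 19.9% of family reads in the Off-Ob ARC of F13A, F41A and F12A but 14.9% and 7.44% in F6A and F42A, against 14.7% to 21.8% in the Off-C ARC. let-7c showed the reverse, with 46.6% in F42A and 41.9% in F6A, above the 39.6% of the highest Off-C ARC library. Without the 2 libraries no member had an unadjusted p under 0.05.

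Within the PVH, limma called 0 of 172 miRNAs (0%) and 0 at an unadjusted p under 0.05. let-7g had the smallest unadjusted p of the members, with a difference of 0.21 (SE 0.11, adjusted p = 0.99). Its share was 21.6%, 21.0%, 20.7%, 20.4% and 17.9% in the Off-Ob PVH of F14A, F13A, F12A, F41A and F42A, against 13.1% to 19.7% with a median of 18.2% in the Off-C PVH. Thus 4 of 5 Off-Ob libraries lay above every Off-C library, and the Off-C PVH library of RC8A, at 13.1%, lay far below the rest. The exact permutation test of let-7g over 462 splits gave p = 0.0498, unadjusted over 10 members. Without RC8A the limma difference of let-7g was 0.13, and without F42A it was 0.26 (unadjusted p = 0.0402, adjusted p = 0.997). The other members differed by -0.14 (let-7f) to 0.25 (let-7i), with let-7a at 0.22, miR-98 at 0.10, let-7c at -0.066, let-7k at -0.043, let-7b at -0.028, let-7e at 0.011 and let-7d at -0.0028.

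Whether the maternal difference itself differed between the nuclei was tested by the interaction in limma, with the mouse as a block. It called 0 of 172 miRNAs (0%) on the share scale, with 1 at an unadjusted p under 0.05, which was not a member. The widest member values were -0.62 for let-7i (SE 0.86), -0.35 for let-7g (SE 0.29) and -0.22 for let-7b (SE 0.21), each with an adjusted p of at least 0.666. Without F42A they were 0.23 for let-7i, -0.025 for let-7g and -0.15 for let-7b.

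**Figure D5:**
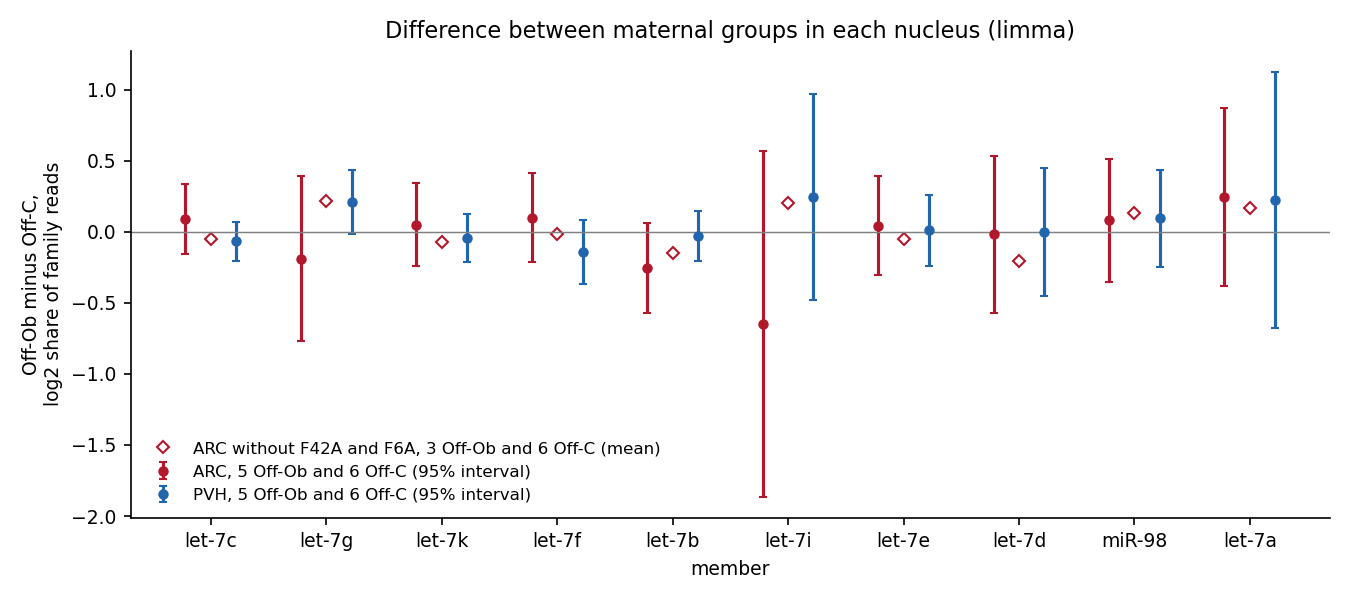
Off-Ob minus Off-C difference in the log2 share of family reads for each member, by limma, within each nucleus (5 Off-Ob and 6 Off-C libraries, points with 95% intervals), and in the ARC without F42A and F6A (open diamonds, means). Every interval crosses 0, and the ARC values of let-7i and let-7g change sign without the 2 libraries, to 0.20 and 0.22.

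On the scale of the deposited values, log2(CPM + 1), members were also compared as levels and not as parts of the family. Here a lower level can mean fewer cells of a type or less RNA per cell. Each level is also relative to the library total and the scale factor, and these sources cannot be told apart in captured tissue. In the ARC minus PVH comparison 37 of 172 miRNAs passed (21.5%, 2 higher and 35 lower in the ARC, against 5 and 7 with median ratio scaling) and 60 had an unadjusted p under 0.05, with no member among either. The median difference was 0.16 for the members and -0.41 for all 172 miRNAs. Of the members 9 were higher in the ARC, but 2 without F42A and all 10 with median ratio scaling, which brought the median of all miRNAs to -0.038. let-7e had the highest level difference at 0.41 (SE 0.29, adjusted p = 0.34), being higher in the ARC of 7 of 10 mice and 0.11 without F42A, and let-7i the lowest at -0.27 (SE 0.20, adjusted p = 0.36).

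For Off-Ob minus Off-C in the ARC all 10 level differences were positive, from 0.039 for let-7i to 0.96 for let-7a, with a median of 0.74 against -0.16 for all miRNAs. The study used another test, an edgeR likelihood ratio test with a cutoff of p under 0.05 and no adjustment named. Its methods name reads scaled by length and depth (RPKM) as the input, while the values here are log2(CPM + 1). The study lists let-7a, let-7c, let-7d, let-7e, let-7f, let-7k and miR-98 as raised in the Off-Ob ARC. For each of them it gives a larger log2 difference than limma gave here. None of the 172 passed limma's test (0%), 10 had an unadjusted p under 0.05 and limma-voom called 0. The 1 member among those 10 was let-7g, at 0.50 (SE 0.21, unadjusted p = 0.0373, adjusted p = 0.49). Without F42A and F6A it was 0.23 (adjusted p = 0.99), and on plain CPM 0.14. Its log2 level was 16.93, 16.75, 16.30, 16.29 and 15.89 in the Off-Ob ARC of F42A, F6A, F41A, F13A and F12A, against 15.68 to 16.11 with a median of 16.04 in the Off-C ARC. For let-7c and let-7b the differences were 0.78 (SE 0.48) and 0.43 (SE 0.37). Without those libraries they were -0.037 and -0.14, and the members' median was -0.020 with 4 members higher and 6 lower. Without F42A alone that median was 0.29. The level of let-7i in F42A and F6A, 13.83 and 13.45, lay within its Off-C range of 13.42 to 14.53. The levels of let-7b, let-7c and let-7g there lay above their Off-C ranges. All these levels carry the scale factor, which was 0.470 for F42A, 0.872 for F6A and at least 1.03 for each Off-C ARC library. As a plain percentage of library reads, let-7i fell below the Off-C ARC range. F42A had 0.683% and F6A 0.977%, while the lowest Off-C ARC library, RC12A, had 1.14%.

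Between the Off-Ob and Off-C PVH libraries the level comparison called 0 of 172 (0%), with 0 at an unadjusted p under 0.05 and 0 by limma-voom, and member differences ran from -0.19 for let-7f to 0.25 for let-7a. The study's edgeR test lists let-7e and let-7k as raised in the Off-Ob PVH, where limma put them at -0.040 and -0.094. The signs are thus opposite. The study's input was RPKM by its methods and not the deposited values, and what makes the results differ was not tested. The interaction of levels likewise called 0 of 172 (0%), with 0 at an unadjusted p under 0.05 and 0 by limma-voom. Its member values were from 0.0019 for let-7i to 0.81 for let-7f, and without F42A from -0.21 for let-7b to 0.17 for let-7i, with let-7f at 0.041.

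Of the 10 miRNAs listed as sharing a transcript or cluster with a let-7 hairpin in mice, 4 were measured: miR-99b-5p, miR-125a-5p, miR-125a-3p and miR-125b-5p. None of the members' passenger arms was among the 172. miR-125a and miR-99b are made beside let-7e. miR-125a-5p kept nearly in step with let-7e in the PVH, where the log2 ratio of their reads had an SD of 0.20. This was not particular to the neighbour. The 9 pairs of let-7e with members, whose hairpins lie on other chromosomes, had SDs of 0.115 to 0.90 there, with a median of 0.21. In the ARC the SD of miR-125a-5p with let-7e was 1.54 with F42A and F6A and 0.15 without them. For miR-99b-5p the SDs were 0.69 in the PVH, 1.28 in the ARC and 0.51 in the ARC without the 2 libraries. Measured against family reads, miR-125a-5p was higher in the ARC of 6 of 10 mice, with a log2 difference of -0.28 (SE 0.38) over all 10 and 0.15 (SE 0.086) without F42A. On the level scale miR-125b-5p, whose hairpins lie in the clusters of Mirlet7a-2 and Mirlet7c-1, was the 1 miRNA of the 4 that passed. Its difference was -0.51 (SE 0.16, adjusted p = 0.0438 by limma, and -0.36 without F42A), with a lower level in the ARC of 9 of 10 mice. Over all 172 miRNAs 37 passed on that scale (21.5%). Measured against family reads, miR-125b-5p did not pass (-0.65, SE 0.40, adjusted p = 0.30 by limma) and was higher in the ARC of 4 of 10 mice. On the level scale miR-125a-5p was at -0.13 (SE 0.18), miR-99b-5p at -0.16 (SE 0.23) and miR-125a-3p at 0.37 (SE 0.43), against 0.029, -0.0081 and 0.078 without F42A.

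Outside the family, the non-member with the steadiest ratio to family reads over the 22 libraries was miR-409-3p, with an SD of the log2 ratio of 0.26 where counting alone gave 0.20. Then came miR-5109 (0.41), miR-5105 (0.42), miR-5126 (0.46) and miR-6538 (0.49), each with a mean of at least 50 reads. Within the PVH the SDs of these 5 were 0.22, 0.43, 0.51, 0.53 and 0.56. There miR-150-5p (0.12) and miR-323-3p (0.14), among others, were steadier than miR-409-3p, against 1.34 and 0.62 in the ARC. These ARC values include F42A and F6A, and the order without those libraries was not computed. Over the 22 libraries let-7i, a member, had an SD of 0.88 in its log2 share.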

How the data were processed

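The authors made TruSeq Small RNA libraries of laser-captured tissue, and the submitters' processing notes name Bowtie 1.2.3 and edgeR 3.36.0. The deposited values are log2(CPM + 1) of 172 miRNAs, with CPM taken by the authors over the library total times a scale factor. miRNA annotation, filter and handling of reads that match several miRNAs are not given in the sources used here. Libraries were grouped by column, named by mouse from the deposited identifier list and not tied to single sample records. The study's methods take tissue from 1 male of a litter for each outcome.

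All 3784 values gave whole reads (tolerance 0.01). A count of 0 allows 3 reads, which is 0.0033% to 0.0133% of a library. Shares were log2((reads + 0.5)/family reads). Shares and levels were fitted over all 172 miRNAs with limma 3.58.1 (R 4.3.3, variance trend, Benjamini-Hochberg, threshold 0.05), which was tested on simulated data. ARC and PVH of the same mouse were paired by a mouse term. Their deviations from group means correlated at -0.46 to 0.22 on the share scale. Maternal groups were compared within each nucleus. Single members were also tested by exact permutation in Python 3.11.15. Named were all members, the listed hairpin neighbours, the 5 steadiest non-members and the 5 steadiest and loosest pairs per nucleus. Members and lists were chosen with earlier results of these data known. Alternatives changed the read offset, the divisor, scaling, pseudocount, filter, trend, mouse term and libraries, and those without F42A and F6A and by limma-voom were added after seeing the data.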

Additional observations from a re-analysis of the deposited data

Results flagged for a closer look

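Each member's log2 share and the family's part of library reads were examined for a library far from the rest of its group, in 44 sets of 5 or 6 libraries, and chance alone flags about 1 in 20. The 1 library flagged was the Off-C PVH of RC8A for mmu-let-7g-5p, with a log2 share of -2.94 against -2.54 in the next lowest library, a gap of 0.67 of the group's range where the limit is 0.625.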

How the results depend on the processing

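No member was called at an adjusted p under 0.05 in the 8 comparisons, and leaving out any 1 mouse changed none of these counts. The count for the ARC minus PVH share became 1 with no replicate block over 22 libraries and 1 with a random replicate block, both by let-7e (0.28 in each, adjusted p = 0.0302 and 0.0498). By exact tests without adjustment the count was 1 for each share comparison: let-7e for the nuclei, let-7b for Off-Ob minus Off-C in the ARC and let-7g in the PVH. No paired analysis was possible for the maternal groups because their mice differ and the columns carry no shared numbers. Against 10 of the 172 miRNAs in the ARC minus PVH share test, 28 passed without F42A and 6 without RC11A or without RC12A, and let-7e had an adjusted p of 0.0501 to 0.346 over the mice left out (0.0501 without F42A). That count was 51 with no replicate block, 41 with a random one, and 15 with a centred log ratio. For levels it was 59 with no block, 59 with a random one, 17 on plain CPM and 12 with median ratio scaling, against 37. That scaling put let-7i at 0.094.

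Signs that turned were of differences that passed no test, and the cause was not tested. In Off-C mice alone the ARC minus PVH share was 0.018 for let-7b, -0.026 for let-7c, -0.011 for let-7f, 0.065 for let-7g and -0.029 for let-7k. In the ARC without F42A and F6A, Off-Ob minus Off-C shares were -0.048 for let-7c, -0.049 for let-7e, -0.013 for let-7f, 0.22 for let-7g, 0.20 for let-7i and -0.070 for let-7k, and levels were -0.14 for let-7b and -0.037 for let-7c. The let-7i level there was -0.32 on plain CPM. With a centred log ratio let-7d was at 0.031 in the ARC and let-7e at -0.040 in the PVH. With the divisor lacking let-7c they were at 0.044 and -0.029.

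Leaving out each mouse, ARC minus PVH shares ranged over -0.079 to 0.24 for let-7a (below 0 without RC11A), -0.025 to 0.045 for let-7c (below 0 without F42A), -0.13 to 0.057 for let-7g (above 0 without F42A), -0.043 to 0.019 for let-7k and -0.017 to 0.057 for miR-98. Off-Ob minus Off-C shares in the ARC ranged over -0.12 to 0.095 for let-7d, -0.021 to 0.094 for let-7e, -0.33 to 0.088 for let-7g and -0.016 to 0.086 for let-7k, turning without F42A for the last 3, and the let-7i level over -0.099 to 0.17. In the PVH they ranged over -0.14 to 0.40 for let-7a (below 0 without RC11A), -0.12 to 0.10 for let-7d and -0.034 to 0.041 for let-7e. The interaction for let-7i ranged over -1.11 to 0.23, above 0 without F42A. Depth limited let-7a most, at 1 to 32 reads.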
